A study of Homo sapiens with 12 samples.

Results

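The comparison described here is that of 3 libraries labelled TGFbeta1 with 3 control libraries of the second of 2 sets of MCF-12A cells, numbered 4 to 6 in each group. The series holds 12 libraries, and every library comes from the same line. MCF-12A is a cell line of human mammary epithelium that does not form tumours. The control cells received vehicle and the other cells TGFbeta1, and the question was which transcripts the cytokine changes. Dose and duration are not stated in the sources used here. Nothing in the labels says that the 3 libraries of a group are separate cultures, so the tests measure the spread between libraries, which may be technical. The members of the comparison are all genes whose summed FPKM (mapped fragments divided by the length of the transcript and the size of the library) averaged at least 1 over the 6 libraries. Of 11504 genes listed, 10579 met that rule and were tested.

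TGFbeta1 is a secreted ligand that binds a pair of receptor kinases at the cell surface. The receptors phosphorylate SMAD2 and SMAD3, which enter the nucleus with SMAD4 and switch on target genes. Some targets, such as SMAD7, SKIL and PMEPA1, feed back on the pathway, while others encode matrix, integrin and protease inhibitor genes. In breast epithelium the cytokine is known for growth arrest and for the epithelial-mesenchymal transition, in which cells lose junctions and keratins and gain matrix genes and vimentin.

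The 6 libraries were alike in size and composition. Their FPKM summed to between 338968.0 and 358432.6, and between 10467 and 10518 genes reached an FPKM of 1 in each. No read counts were used, so depth is unknown. In a principal component analysis the first component, with 24.0% of the variance, placed the controls between -13.7 and -12.3 and the libraries labelled TGFbeta1 at 22.4, 7.23 and 8.70. TGFbeta1 6 stood apart on the second component (20.5% of the variance), at -24.4 against 14.2 for TGFbeta1 4. Keratin genes of basal epithelium were abundant in both groups. KRT14 was at 873 ± 79.5 FPKM in the controls and 862 ± 57.8 in the libraries labelled TGFbeta1, and KRT5 at 475 ± 35.2 and 495 ± 38.4 (SD, n = 3 each).

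Transcripts of liver genes were present in 4 of the 6 libraries. Of 17 liver genes, a list added after the data had been seen, 6 could be measured here: AFP and ALB, which encode the main fetal and adult serum proteins, APOB, FGA, FGB and AMBP. Their summed FPKM was 42.0 in TGFbeta1 4, 10.01 in control 6, 4.69 in TGFbeta1 5 and 1.55 in TGFbeta1 6. It was 0.005 in controls 4 and 5, where all 6 genes were under 0.01. AFP alone was at 23.7 FPKM in TGFbeta1 4 and at 5.37 in control 6. The part of this signal in the results was not tested. Without TGFbeta1 4, 11 genes were called, among them 5 of the 34 described next.

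At an adjusted p under 0.05 (limma with Benjamini-Hochberg adjustment over all genes tested), 34 genes differed, which is 0.321% of those tested. Of these, 18 were higher with TGFbeta1 (0.170%) and 16 lower (0.151%). Changes are given as the difference of mean log2(FPKM + 1), TGFbeta1 minus control, a scale that understates the change of low genes. Among the genes that rose were those for the calcium-binding proteins S100A7, S100A8 and S100A9, the protease inhibitors PI3, SERPINB3 and SERPINB4, the defence protein LCN2 and the cytokine IL1B. Among those that fell were the trafficking genes AP1M1, STX6 and SNX6 and the matrix proteoglycan gene DCN. Others were the surface peptidase gene MME and the matricellular gene CTGF. The fall of AP1M1 was absent when transcript length was taken into account, as described with its transcripts. The median change over all genes was -0.00, and 14 of the 34 calls had a size of at least 1 (9 higher, 5 lower). A further 70 genes moved by at least 1 without passing. The median standard error of those 70 was 0.47, against 0.08 for the 34.

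**Figure D1:**
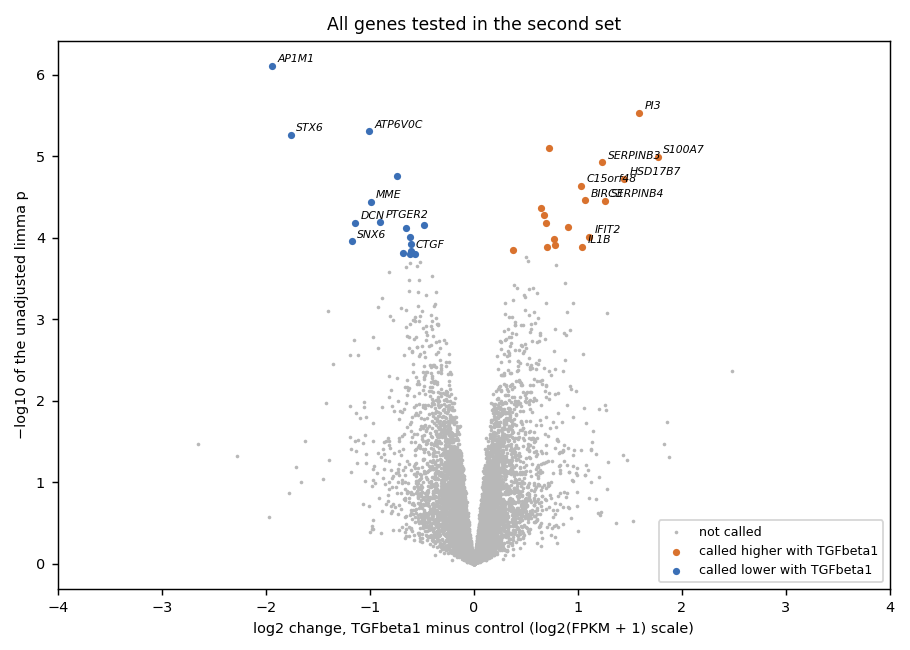
Each point is 1 of the 10579 genes, with the log2 change (TGFbeta1 minus control) on the x axis and −log10 of the unadjusted limma p on the y axis. Orange points are the 18 genes called higher, blue points the 16 called lower, and several grey points lie farther out than any called gene at small −log10 p.

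The groups did not overlap for 2045 genes, or 19.3% of those tested, of which 1027 were higher (9.71%) and 1018 lower (9.62%). An unadjusted p under 0.05 was reached by 1182 genes (11.2%). The 34 calls depended on which libraries were included. Without control 4 no gene passed, the smallest adjusted p being 0.0906, and without any other single library between 5 and 23 did. PI3 and AP1M1 passed in 5 of the 6 fits that leave out a library. S100A7, STX6 and ATP6V0C passed in 3, SERPINB3 and LCN2 in 2, and HSD17B7, SERPINB4, BIRC3, IL1B, DCN, MME and PTGER2 in 1. The other 20 passed in none. The direction of all 34 was the same in all 6.

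**Figure D2:**
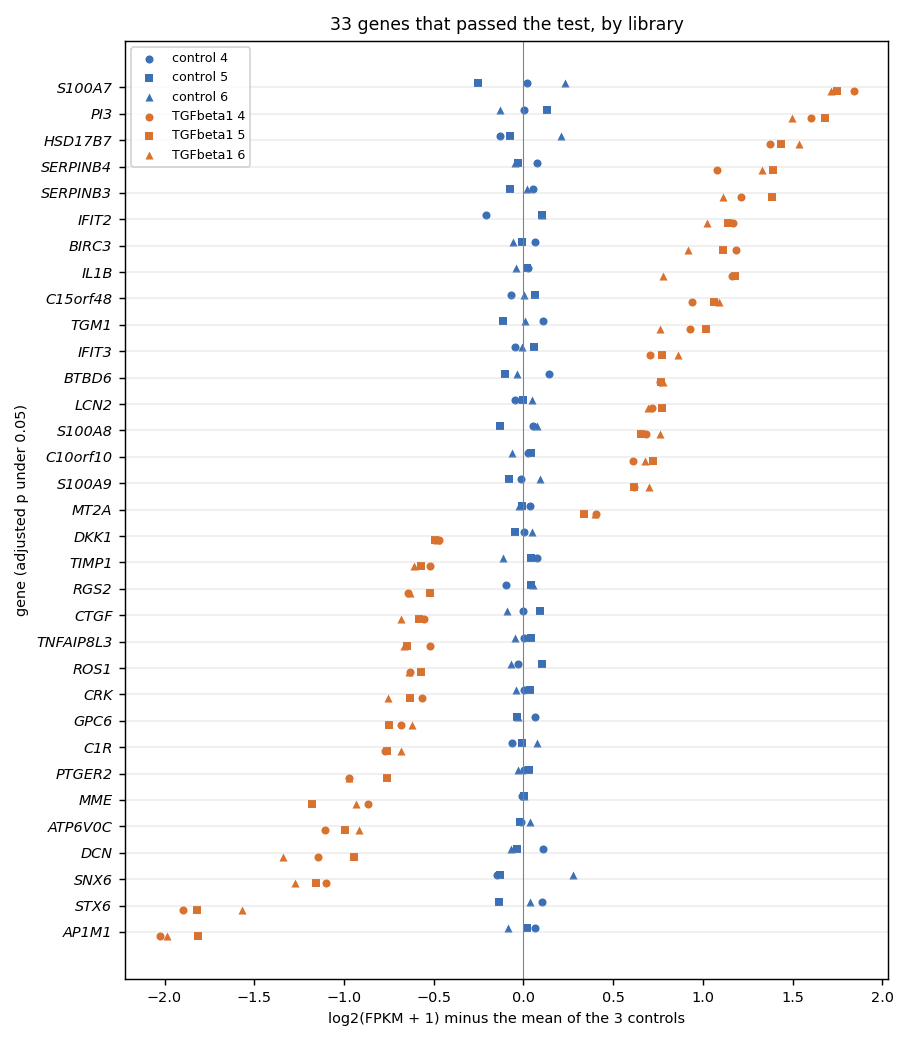
Each row is 1 of 33 of the 34 called genes, and each symbol is 1 library's log2(FPKM + 1) minus the mean of the 3 controls on the x axis. Blue symbols are controls and orange symbols libraries labelled TGFbeta1, with circles, squares and triangles for numbers 4, 5 and 6. In every row the 3 orange symbols lie to one side of the 3 blue ones.

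Direct TGFbeta targets were not raised in these libraries. Of 26 feedback and direct target genes 23 were tested, none was called higher and 1, CTGF, was called lower. The groups did not overlap for 2 that were higher (8.70%) and 8 that were lower (34.8%), against 9.71% and 9.62% of all genes. The median change was -0.08, against -0.00 over all genes, and turned to 0.005 with sums weighted by transcript length. SMAD7, the inhibitory SMAD, was at 1.199, 1.15 and 1.03 FPKM in the controls and 1.09, 0.748 and 0.894 with TGFbeta1, and these ranges overlapped (adjusted p = 0.653). SKIL, a SMAD co-repressor gene, was at 4.22 ± 0.332 and 3.95 ± 0.244 FPKM, and TGM2, a transglutaminase gene, at 14.4 ± 1.28 and 13.2 ± 1.39 (SD, n = 3 each).

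CTGF, which encodes a secreted matricellular protein, fell from 45.7, 49.0 and 43.1 FPKM to 31.0, 30.3 and 28.2 (log2 change -0.61, SE 0.07, adjusted p = 0.0491). All 3 libraries labelled TGFbeta1 lay under the lowest control. PMEPA1, which encodes a membrane protein that sequesters SMADs, was at 13.8, 16.2 and 13.1 FPKM in the controls and 10.2, 11.5 and 9.58 with TGFbeta1. Its groups did not overlap, but it did not pass (log2 change -0.43, adjusted p = 0.258). TGFBI, a matrix protein gene named for its induction by TGFbeta, was at 181, 231 and 226 FPKM under vehicle and at 148, 54.5 and 59.7 with TGFbeta1. TGFbeta1 4 was closer to the controls than the other 2 were, and the log2 change of -1.42 did not pass (SE 0.39, adjusted p = 0.288). The integrin subunit gene ITGB6, whose product activates latent TGFbeta, was at 2.45 ± 0.629 and 2.52 ± 0.801 FPKM (SD, n = 3). SMURF2, a ubiquitin ligase gene of the pathway named here after its values were seen, was at 10.8 and 12.1 FPKM in TGFbeta1 4 and 6 but at 2.02 in TGFbeta1 5, within the controls' range of 1.71 to 2.15.

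None of the 21 tested genes for TGFbeta family ligands, receptors and signalling SMADs was called, and their median was -0.03. For 4 of them (19.0%) the groups did not overlap in the higher direction and for 5 (23.8%) in the lower. The shares over all genes were 9.71% and 9.62%. Among the ID genes, whose products block basic helix-loop-helix transcription factors, ID1 was at 138, 129 and 141 FPKM in the controls and 173, 179 and 184 with TGFbeta1. All 3 were above the highest control, yet the adjusted p was 0.0849 (log2 change 0.39). ID3 was at 33.8 ± 5.42 and 37.6 ± 1.75 FPKM and overlapped.

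**Figure D3:**
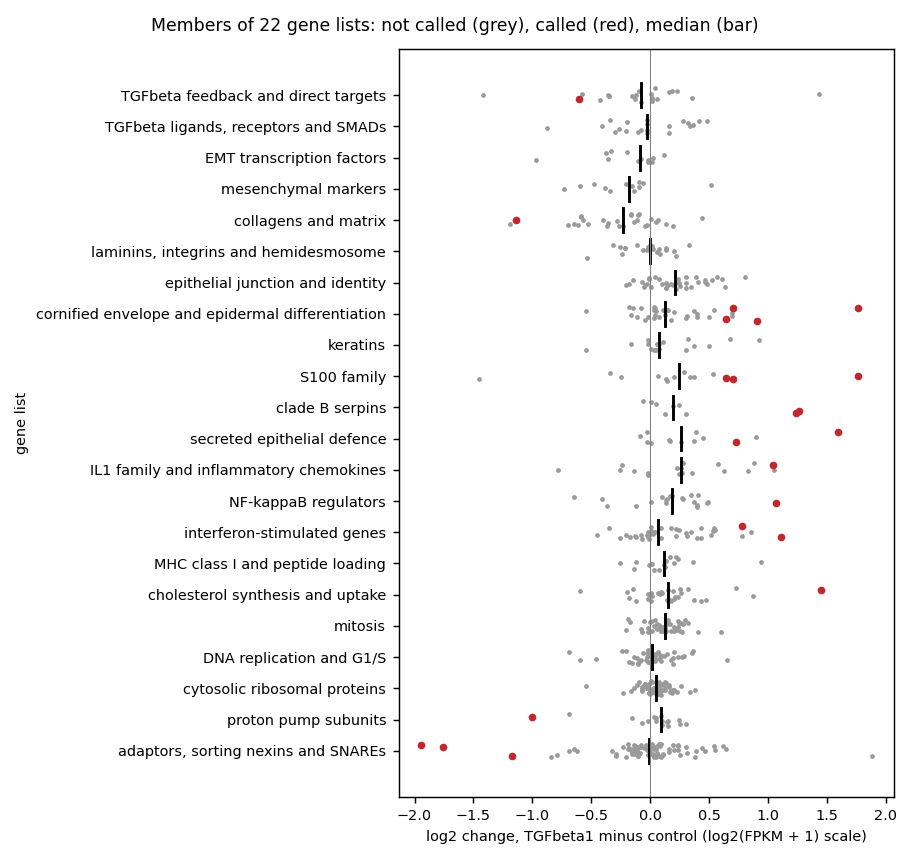
Each row is 1 gene list and each point 1 tested member, with its log2 change (TGFbeta1 minus control) on the x axis. Red points are the members called at an adjusted p under 0.05, grey points the others, and black bars the list medians, which run from -0.23 for collagens and matrix to 0.26 for secreted epithelial defence and for the IL1 family and chemokines.

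Matrix and mesenchymal genes were lower rather than higher on balance. Of 29 tested collagen and matrix genes 1 was called lower, DCN, and none higher. The groups did not overlap for 15 that were lower (51.7%) and 2 that were higher (6.90%), against 9.62% and 9.71% of all genes. The list median was -0.23. The median was negative under every scaling and without each library. DCN, which encodes the small proteoglycan decorin that binds collagen fibrils, fell from 30.8, 27.8 and 27.1 FPKM to 12.4, 14.3 and 10.7 (log2 change -1.14, SE 0.11, adjusted p = 0.0380). All 3 TGFbeta1 values lay below the lowest control. The collagen cross-linking enzyme gene LOX was at 14.5 ± 0.483 FPKM in the controls and 9.15 ± 0.716 with TGFbeta1, with groups apart (SD, n = 3; log2 change -0.62, adjusted p = 0.0577). The basement membrane chain gene COL4A2 was at 9.39 ± 0.474 and 6.22 ± 0.215 FPKM (change -0.52, adjusted p = 0.0786), and COL6A1 at 10.9 ± 1.38 and 6.33 ± 0.474 (adjusted p = 0.116).

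No gene of the 12 tested mesenchymal markers was called. FN1, the fibronectin gene, was at 410, 403 and 380 FPKM in the controls and 207, 207 and 315 with TGFbeta1. TGFbeta1 6 lay between the other 2 and the controls, and the log2 change of -0.74 did not pass (SE 0.17, adjusted p = 0.226). TNC, which encodes the matrix glycoprotein tenascin-C, was at 3.395 ± 0.517 and 5.37 ± 1.42 FPKM, higher without overlap by a narrow margin but not called (adjusted p = 0.414). Vimentin (VIM) was at 602 ± 63.2 and 540 ± 22.4 FPKM as a gene sum, and its 2 transcripts are described with the other transcripts. Of 12 tested transcription factors of the epithelial-mesenchymal transition none was called. Without overlap, 4 were lower (33.3%, against 9.62% of all genes). SNAI2, a repressor of epithelial genes, was at 66.6 ± 2.34 and 58.2 ± 4.13 FPKM (change -0.19, adjusted p = 0.385). ZEB1 was at 1.78 ± 0.956 and 1.496 ± 0.2045 FPKM and overlapped. Among secreted proteases and their inhibitors 1 of 19 tested genes was called. TIMP1, the metalloprotease inhibitor gene, fell from 119, 116 and 104 FPKM to 78.5, 75.8 and 73.6 (log2 change -0.57, SE 0.07, adjusted p = 0.0491). The urokinase gene PLAU was at 50.8 ± 2.30 and 78.8 ± 14.6 FPKM, higher without overlap but not called (adjusted p = 0.234).

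Among the called genes, those with the largest rises were S100A7 and PI3, of epidermal differentiation and epithelial defence, followed by HSD17B7 of cholesterol synthesis. S100A7, which encodes the antimicrobial protein psoriasin, rose from 22.3, 18.2 and 26.0 FPKM to 81.1, 76.0 and 74.3 (log2 change 1.77, SE 0.13, adjusted p = 0.0179). S100A8 and S100A9 encode the 2 subunits of calprotectin, a metal-binding defence protein. S100A8 rose from 185, 164 and 188 FPKM to 288, 282 and 303 (log2 change 0.70, adjusted p = 0.0380). S100A9 rose from 434, 415 and 466 FPKM to 671, 672 and 712 (log2 change 0.64, adjusted p = 0.0326). In all 3 genes each TGFbeta1 library was above each control. Of 14 tested genes of the S100 list, which includes the S100P-binding S100PBP, these 3 were called and none was called lower. The groups did not overlap for 9 that were higher (64.3%) and 2 that were lower (14.3%), against 9.71% and 9.62% of all genes. The median was 0.25. S100A4, often used as a mesenchymal marker, was among the 3 members with a negative change (-0.35, not called).

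Of 35 tested genes of the cornified envelope and epidermal differentiation, 4 were called higher and none lower, and the 4 include the same 3 S100 genes. The fourth, TGM1, encodes the transglutaminase that cross-links the envelope and rose from 25.1, 21.4 and 23.4 FPKM to 45.2, 48.1 and 40.2 (log2 change 0.90, SE 0.09, adjusted p = 0.0380). The median was 0.13. Over all genes, the groups did not overlap in the higher direction for 9.71% and in the lower for 9.62%. Here this was so for 14 members (40.0%) and 1 member (2.86%). That one was the keratin KRT13, at 24.7, 11.6 and 15.1 FPKM in the controls and 10.4, 11.4 and 10.9 with TGFbeta1 (adjusted p = 0.492). KRT6B, a keratin of activated epidermis, was at 28.8 ± 1.37 and 41.1 ± 1.43 FPKM (SD, n = 3) and just missed the threshold (log2 change 0.50, adjusted p = 0.0529). In all, 27 of the 35 had a change above 0. The involucrin gene IVL and the keratin gene KRT6A, picked after their values were seen, both changed by 0.03.

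Genes for 3 protease inhibitors of epithelia also rose. PI3, which encodes the elastase inhibitor elafin, rose from 6.75, 7.45 and 6.06 FPKM to 22.4, 23.8 and 20.8 (log2 change 1.59, SE 0.09, adjusted p = 0.0145). SERPINB3 rose from 6.81, 6.14 and 6.61 FPKM to 16.4, 18.6 and 15.2 (log2 change 1.24, adjusted p = 0.0179), and its near-identical neighbour SERPINB4 from 1.28, 1.12 and 1.09 to 3.56, 4.66 and 4.43 (log2 change 1.26, adjusted p = 0.0295). Both encode serine and cysteine protease inhibitors, and reads of the pair can be assigned to either gene, so their separate values are uncertain. The other 7 of 9 tested clade B serpins were not called, and the median of the list was 0.19. LCN2, which encodes the iron-siderophore-binding protein lipocalin 2, rose from 67.9, 70.3 and 72.9 FPKM to 116, 121 and 114 (log2 change 0.73, SE 0.05, adjusted p = 0.0167). Of 13 tested genes of secreted epithelial defence PI3 and LCN2 were called. Without overlap, 6 were higher (46.2%) and none was lower, against 9.71% and 9.62% of all genes. SLPI, the leukocyte protease inhibitor gene, was at 201 ± 27.7 and 262 ± 10.1 FPKM (adjusted p = 0.286).

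Inflammatory genes gave 2 calls. IL1B, which encodes the cytokine interleukin-1 beta, rose from 21.5, 21.4 and 20.5 FPKM to 48.5, 49.1 and 37.0 (log2 change 1.04, SE 0.12, adjusted p = 0.0479). TGFbeta1 6 was the lowest of the 3 and still above all controls. IL1A was at 111 ± 5.91 and 167 ± 17.9 FPKM (change 0.58, adjusted p = 0.119), and the chemokine gene CCL20 at 9.36 ± 1.43 and 18.2 ± 3.20 (log2 change 0.88, adjusted p = 0.139). Of 18 tested genes of the IL1 family and inflammatory chemokines only IL1B was called, and the median was 0.26. Without overlap, 7 were higher and 2 lower (38.9% and 11.1%, against 9.71% and 9.62% of all genes). Of 21 tested regulators of NF-kappaB, the transcription factor family downstream of IL1 and TNF receptors, 1 was called. BIRC3, an inhibitor of apoptosis gene, rose from 4.40, 4.13 and 3.96 FPKM to 10.7, 10.1 and 8.72 (log2 change 1.07, SE 0.10, adjusted p = 0.0295). TNFAIP3, which encodes a feedback deubiquitinase, was at 10.9 ± 0.598 and 15.7 ± 1.77 FPKM (adjusted p = 0.160), and the median of the list was 0.19.

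Of 40 tested interferon-stimulated genes 2 were called higher and none lower. IFIT2 rose from 0.982, 1.46 and 1.453 FPKM to 4.13, 4.04 and 3.64 (log2 change 1.11, SE 0.12, adjusted p = 0.0450) and IFIT3 from 1.62, 1.82 and 1.69 to 3.42, 3.62 and 3.91 (log2 change 0.78, SE 0.09, adjusted p = 0.0477). Both encode proteins with tetratricopeptide repeats that act against viral RNA, and both were low in all libraries. For 15 members (37.5%) the groups did not overlap in the higher direction, against 9.71% of all genes. For 2 they did not overlap in the lower direction, a smaller share than the 9.62% of all genes. The median of the list was 0.06. None of the 17 tested genes of MHC class I and peptide loading was called. Without overlap, 8 of them were higher (47.1%) and 2 lower (11.8%), and their median was 0.12.

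Promoter sequences are shown for the 3 genes that rose and hold 1 of 2 motifs searched, that of interferon-responsive elements or that of NF-kappaB. RefSeq entries (250 bases before to 50 after the start site, GRCh38.p14) matched 27 of the 34 called genes, 13 that rose and 14 that fell. The motif searched for interferon-responsive elements was a pair of GAAA runs with 2 free bases between them, and that for kappaB sites was GGG, 3 free bases and TTCC, each on both strands and with overlaps between the motifs allowed. The first was found in 3.65% of 27305 promoters and the second in 6.47%. Of the matched called genes, IFIT3 and GPC6 held the first, and BIRC3, LCN2, ATP6V0C, CTGF and PTGER2 the second, so the kappaB letters occur in 2 genes that rose and 3 that fell. The promoters of the genes that fell are not shown. In the sequences that follow, capitals mark the motif matches. They start at bases -156 and -122 from the start site in IFIT3 (chr10:89327747-89328046, plus strand), at -199 in BIRC3 (chr11:102317234-102317533, plus strand) and at -175 in LCN2 (chr9:128149203-128149502, plus strand). A match is a description of these letters only.
IFIT3: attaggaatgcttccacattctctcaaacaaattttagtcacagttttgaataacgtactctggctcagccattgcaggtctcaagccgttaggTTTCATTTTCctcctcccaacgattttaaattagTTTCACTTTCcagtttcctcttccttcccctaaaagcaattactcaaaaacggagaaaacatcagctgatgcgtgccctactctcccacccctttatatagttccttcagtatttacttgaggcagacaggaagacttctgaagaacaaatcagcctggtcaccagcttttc
BIRC3: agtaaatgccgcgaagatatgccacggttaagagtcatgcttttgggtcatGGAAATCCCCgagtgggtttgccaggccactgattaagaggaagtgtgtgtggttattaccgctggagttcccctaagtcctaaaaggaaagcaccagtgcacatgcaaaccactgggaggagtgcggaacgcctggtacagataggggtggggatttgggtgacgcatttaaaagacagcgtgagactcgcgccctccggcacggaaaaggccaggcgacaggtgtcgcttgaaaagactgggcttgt
LCN2: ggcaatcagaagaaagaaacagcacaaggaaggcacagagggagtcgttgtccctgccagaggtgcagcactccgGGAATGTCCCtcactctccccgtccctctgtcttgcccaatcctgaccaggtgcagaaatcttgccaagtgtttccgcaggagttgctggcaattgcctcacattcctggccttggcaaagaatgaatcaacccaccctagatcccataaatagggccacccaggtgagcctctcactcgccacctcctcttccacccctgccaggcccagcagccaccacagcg

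The other rises were in single genes of several kinds. HSD17B7, which encodes a sterol reductase of cholesterol synthesis, rose from 1.92, 2.03 and 2.69 FPKM to 7.28, 7.64 and 8.24 (log2 change 1.45, SE 0.12, adjusted p = 0.0222). It was the only call among 32 tested genes of cholesterol synthesis and uptake, whose median was 0.15. Without overlap, 12 were higher and 2 lower (37.5% and 6.25%, against 9.71% and 9.62% of all genes). MT2A, a metallothionein gene, rose from 869, 843 and 832 FPKM to 1123, 1074 and 1118, the smallest called change (0.38, adjusted p = 0.0491). MT1E of the same family was at 408 ± 14.8 and 588 ± 38.7 FPKM (change 0.53, adjusted p = 0.0564). BTBD6, an adaptor gene of cullin ubiquitin ligases, rose by 0.77, C15orf48 by 1.03 and C10orf10, which lies outside the naming rule, by 0.67.

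Of the 4 called genes with the largest falls as gene sums, 3 were vesicle trafficking genes. Of 87 tested adaptor, sorting nexin and SNARE genes 3 were called lower and none higher, and the median was -0.01. For 12 members (13.8%) the groups did not overlap in the lower direction, against 9.62% of all genes, and for 4 (4.60%) in the higher, against 9.71%. STX6, a SNARE gene of endosome-to-Golgi transport with 1 listed transcript, fell from 22.5, 19.0 and 21.5 FPKM to 4.90, 5.21 and 6.39 (log2 change -1.76, SE 0.11, adjusted p = 0.0145). The highest TGFbeta1 value was far below the lowest control. ATP6V0C, which encodes the proton-carrying ring subunit of the vacuolar pump, fell from 72.2, 72.0 and 75.0 FPKM to 33.4, 36.2 and 38.2 (log2 change -1.01, SE 0.06, adjusted p = 0.0145). It was the only call among 17 tested pump genes, whose median was 0.09.

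AP1M1 had the largest called fall as a gene sum, and that fall was absent when transcript length was taken into account. The gene encodes the medium subunit of the adaptor complex that sorts cargo at the trans-Golgi network. Its sum fell from 14.3, 13.8 and 12.7 FPKM to 2.58, 3.14 and 2.68 (log2 change -1.94, SE 0.09, adjusted p = 0.00819). AP1M1-203, of 2311 bases, went from 13.8, 13.1 and 12.2 FPKM to 0.009, 0.344 and 0 (adjusted p = 0.00474 over transcripts). AP1M1-201, of 13193 bases, was at 0.417, 0.646 and 0.525 FPKM in the controls and 2.57, 2.80 and 2.68 with TGFbeta1 (adjusted p = 0.0837). FPKM divides by length, so the same number of fragments counts for less in the longer transcript. With each transcript weighted by its length before summing, an alternative added after the data had been seen, AP1M1 moved by only -0.05 (SE 0.07, adjusted p = 0.812). The 2 transcripts share 2275 exonic bases. The stretch that only AP1M1-203 holds is shown because it tells the 2 apart. It lies at chr19:16210360-16210395 (GRCh38, plus strand) within the coding sequence, and its 36 bases are in capitals between 15 shared bases on each side.
AP1M1-203: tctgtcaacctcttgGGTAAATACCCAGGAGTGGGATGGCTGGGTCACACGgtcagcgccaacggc

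SNX6, a sorting nexin gene of the retromer pathway, fell from 47.1, 47.8 and 63.6 FPKM to 23.9, 23.0 and 21.1 (log2 change -1.17, SE 0.13, adjusted p = 0.0469). SNX6-201 went from 13.5, 15.3 and 51.9 FPKM to 1.08, 1.12 and 1.34, and SNX6-202 was at 32.7, 31.0 and 9.56 and then 20.1, 21.2 and 17.95. Control 6 differed from the other controls in both transcripts. Weighted by length, the fall of SNX6 was -0.94 and passed (adjusted p = 0.0162).

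**Figure D4:**
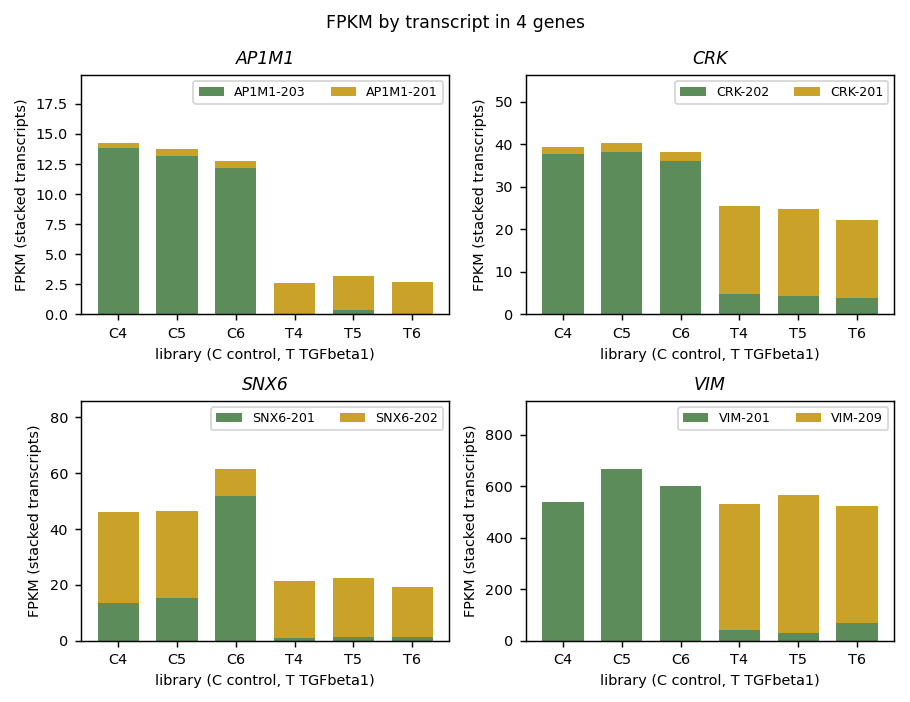
Stacked bars give the FPKM of 2 transcripts of AP1M1, CRK, SNX6 and VIM in each library (C4 to C6 controls, T4 to T6 TGFbeta1), with y axes from 0. In AP1M1, CRK and VIM the green transcript makes up nearly all of each control bar and the yellow one most of each TGFbeta1 bar, while the VIM totals are alike.

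CRK, which encodes an adaptor that links tyrosine kinases to small GTPase regulators, fell as a sum from 39.4, 40.3 and 38.2 FPKM to 26.2, 25.0 and 22.8 (log2 change -0.65, SE 0.07, adjusted p = 0.0380). Its transcripts were listed as moving in opposite directions, but CRK-202 holds no base of its own. All of its 3675 bases are also in CRK-201, which has 3880. How reads were divided between them was not tested. CRK-202 fell from 37.6, 38.2 and 36.0 FPKM to 4.70, 4.39 and 3.82 (log2 change -2.85, adjusted p = 0.00181). CRK-201 rose from 1.79, 2.05 and 2.22 FPKM to 20.8, 20.3 and 18.4 (log2 change 2.79, adjusted p = 0.00219). The coding sequence is 615 bases in CRK-202 and 915 in CRK-201, which as background correspond to the short CrkI and the longer CrkII form with a further SH3 domain. A coding stretch that only CRK-201 holds is shown in capitals, between 15 shared bases on each side. This stretch is part of what differs between the 2 forms, not all of it. It lies at chr17:1436620-1436789 (GRCh38, minus strand) and has 170 bases.
CRK-201: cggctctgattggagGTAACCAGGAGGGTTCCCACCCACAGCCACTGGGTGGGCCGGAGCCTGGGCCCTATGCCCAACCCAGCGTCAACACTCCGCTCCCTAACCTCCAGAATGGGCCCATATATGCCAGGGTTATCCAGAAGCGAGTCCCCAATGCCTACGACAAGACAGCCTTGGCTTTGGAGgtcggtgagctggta

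Such exchanges were also seen in genes whose sum did not pass the test. Of 20392 transcripts tested, 45 were called (0.221%), 24 higher (0.118%) and 21 lower (0.103%), and 31 of the 45 belong to genes that were not called. VIM-201 fell from 539, 665 and 602 FPKM to 41.9, 27.4 and 67.2 (log2 change -3.78, adjusted p = 0.0337). VIM-209 was listed at 0, 0 and 0.113 FPKM under vehicle and at 487, 538 and 457 with TGFbeta1 (adjusted p = 1.3e-05). The 2 share 1867 exonic bases, of 1868 in VIM-201 and 2135 in VIM-209, and the same coding sequence of 1401 bases. How reads were divided between them was not tested. The gene sum had a log2 change of -0.15 (adjusted p = 0.575). KDM3A, a histone demethylase gene, showed the same kind of exchange between 2 transcripts of the same coding sequence. KDM3A-201 fell from 9.26 to 1.79 FPKM and KDM3A-202 rose from 0.203 to 7.39 (means of 3), with a log2 change of -0.04 for the gene. ACIN1-205 fell from 10.5 to 2.73 FPKM and ACIN1-213 rose from 1.28 to 16.2, in a gene for an apoptosis and splicing protein whose sum had a log2 change of 0.89 (adjusted p = 0.119). CLDN7-202, of the tight junction gene CLDN7, rose from 14.02, 12.98 and 11.9 FPKM to 35.6, 38.1 and 40.5 (log2 change 1.49, adjusted p = 0.0134). One transcript of ZEB2, a repressor gene of epithelial genes, was listed at 0 in all controls but reached 2.36, 2.23 and 2.56 FPKM with TGFbeta1 (adjusted p = 0.0432), while the gene sum had a log2 change of -0.33.

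Genes of the cell surface and of signalling made up most of the remaining falls. MME, which encodes the peptidase neprilysin and marks basal and myoepithelial breast cells, fell from 74.4, 74.9 and 74.8 FPKM to 40.6, 32.4 and 38.6 (log2 change -0.99, SE 0.09, adjusted p = 0.0295). C1R, a protease gene of the classical complement pathway, fell from 57.8, 60.0 and 63.7 FPKM to 35.0, 35.2 and 37.3 (log2 change -0.74, SE 0.06, adjusted p = 0.0222) and was the only call among 10 tested complement genes. PTGER2, a prostaglandin E2 receptor gene, fell from 6.64, 6.78 and 6.47 FPKM to 2.89, 3.51 and 2.88 (log2 change -0.90, SE 0.09, adjusted p = 0.0380). ROS1, a receptor tyrosine kinase gene, fell by 0.61, GPC6, a cell surface proteoglycan gene, by 0.68 and TNFAIP8L3, a phosphoinositide transfer protein gene, by 0.61 on the log2 scale. RGS2, which encodes an inhibitor of G protein signalling, fell from 52.4, 57.7 and 58.3 FPKM to 35.5, 38.8 and 35.9 (log2 change -0.60, adjusted p = 0.0477). DKK1, a secreted Wnt inhibitor gene, fell from 58.5, 56.4 and 60.3 FPKM to 41.9, 41.3 and 41.6 (log2 change -0.48, SE 0.05, adjusted p = 0.0380). For each of these 8 genes every TGFbeta1 library was below every control. Weighted by length, DCN (-0.97, adjusted p = 0.123) and PTGER2 (-0.78, adjusted p = 0.0524) did not pass, and C1R was not tested for want of transcript lengths.

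Epithelial genes were higher on balance, with no call. Of 39 tested epithelial junction and identity genes 17 were higher without overlap, against 9.71% of all genes, and none was lower without overlap. Their median was 0.21, and it stayed above 0 under every scaling and without each library. CLDN1, a tight junction gene, was at 77.6 ± 5.26 and 119 ± 11.1 FPKM (SD, n = 3; change 0.61, adjusted p = 0.0941). ELF3, an epithelial transcription factor gene, was at 18.8 ± 1.37 and 26.7 ± 0.856 FPKM (change 0.48, adjusted p = 0.0954). EPCAM, an epithelial adhesion gene, was at 71.1, 67.9 and 70.5 FPKM in the controls and 84.1, 88.6 and 73.4 with TGFbeta1 (adjusted p = 0.386). E-cadherin (CDH1) varied within the groups, at 5.13, 11.6 and 19.7 FPKM in the controls and 19.99, 10.8 and 23.0 with TGFbeta1, which overlapped (adjusted p = 0.691).

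Markers of other cell types gave few values. Of 17 tested basal mammary markers only MME was called. Their summed FPKM was 3325 to 3536 in the controls and 3340 to 3442 with TGFbeta1. For 4 basal markers (23.5%) the groups did not overlap in the higher direction and for 1 (5.88%) in the lower. The shares over all genes were 9.71% and 9.62%. The luminal markers summed to 976 to 1072 and to 1084 to 1282, with 9 of 19 tested and none called. Without overlap, 3 were higher (33.3%, against 9.71% of all genes). GATA3, a luminal transcription factor gene, was at 2.13 ± 0.360 and 2.94 ± 0.249 FPKM (adjusted p = 0.387). Of 11 stromal fibroblast markers 3 were tested and 6 were not analysed here, among them COL1A2, COL3A1, PDGFRB and LUM. The 5 measured ones summed to 43.1 to 46.5 FPKM in the controls and 19.9 to 23.6 with TGFbeta1. DCN made up most of both sums, FAP was at 7.47 ± 0.269 and 5.12 ± 0.608 FPKM (adjusted p = 0.168) and COL1A1 at 0.439 ± 0.021 and 0.713 ± 0.085. Every library comes from the same epithelial line, and the part of any stromal cells in the fall of DCN was not tested. In bulk RNA, fewer cells of a type and less RNA per cell cannot be told apart. Of 17 leukocyte, endothelial and erythroid markers 12, among them PTPRC, PECAM1 and VWF, were not analysed here. The other 5 summed to 20.6 to 21.3 FPKM and 16.3 to 25.5, and they did not go one way. CD14, a monocyte receptor gene, was at 5.35 ± 1.08 and 8.69 ± 0.339 FPKM, higher without overlap (adjusted p = 0.181), and the macrophage gene CD68 at 14.3 ± 1.04 and 11.1 ± 4.01, overlapping. The globin gene HBB was listed at 0 in the controls and averaged 0.691 with TGFbeta1.

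Proliferation and housekeeping lists held no call. Of 47 tested mitosis genes 16 were higher without overlap and 1 lower (34.0% and 2.13%, against 9.71% and 9.62% of all genes), with a median of 0.13. CENPA, the centromeric histone gene, was at 2.77 ± 0.408 and 4.71 ± 0.679 FPKM (change 0.60, adjusted p = 0.202). Of 46 tested DNA replication and G1/S genes 5 were higher and 4 lower without overlap (10.9% and 8.70%, near the shares of all genes), with a median of 0.01. The 74 cytosolic ribosomal protein genes had a median of 0.05 and the 67 nuclear-encoded oxidative phosphorylation genes one of 0.05. Without overlap, 3 of the ribosomal genes were higher (4.05%) and 2 lower (2.70%). Of the oxidative phosphorylation genes 6 were higher (8.96%) and 2 lower (2.99%). All of these shares were under those of all genes.

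The effect of the agent differed from that in the first set, in which replicates 1 to 3 of each group were deposited as a separate table. In a fit of the interaction of set and agent, each change being taken within its own table, 1346 of 9990 genes listed in both differed (13.5%). The effect was higher in the second set for 759 (7.60%) and lower for 587 (5.88%). The split turned with the scaling, to 489 higher and 712 lower with an equal sum per library. PMEPA1 changed by -0.43 in the second set and by 3.08 in the first (difference -3.51, SE 0.16, adjusted p = 5e-07). ITGB6 changed by 0.02 and 3.70, TGM2 by -0.12 and 3.71, FN1 by -0.74 and 2.96, and SMAD7 by -0.16 and 1.27. Of the 34 called genes 30 were in this fit, and 24 of them differed between the sets.

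Of the called genes in this fit, 11 of 15 that rose and 11 of 15 that fell had the opposite sign in the first set. Over all genes in the fit, the sign was opposite for 58.4% of those higher in the second set and 44.4% of those lower. Some of these first-set changes were smaller than their SE, such as 0.08 (SE 0.18) for GPC6, 0.19 (SE 0.51) for STX6 and 0.21 (SE 0.52) for TNFAIP8L3. LCN2 changed by 0.73 against -5.77 (difference 6.498, SE 0.09, adjusted p = 4.5e-11), S100A9 by 0.64 against -4.08, and PI3 by 1.59 against -2.23. CTGF changed by -0.61 against 1.65 and DCN by -1.14 against 1.21. IL1B had the same sign in both sets, 1.04 against 2.47, and the difference passed (-1.43, adjusted p = 0.000106). RGS2 was lower in both, by -0.60 and -1.07, and its difference also passed (0.47, adjusted p = 0.0277). HSD17B7 was higher in both, by 1.45 and 0.40, and its difference passed as well (1.05, adjusted p = 0.00851). The differences for CDH1 (adjusted p = 0.186), ZEB1 (0.206), KRT14 (0.549) and STX6 (0.110) did not pass. STX6 varied within both groups of the first set, at 19.7, 4.72 and 19.1 FPKM in controls 1, 2 and 3 and at 21.1, 20.1 and 6.55 in TGFbeta1 1, 2 and 3. The higher level is near that of the second set's controls and the lower one near that of its TGFbeta1 libraries, and each first-set group held both.

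**Figure D5:**
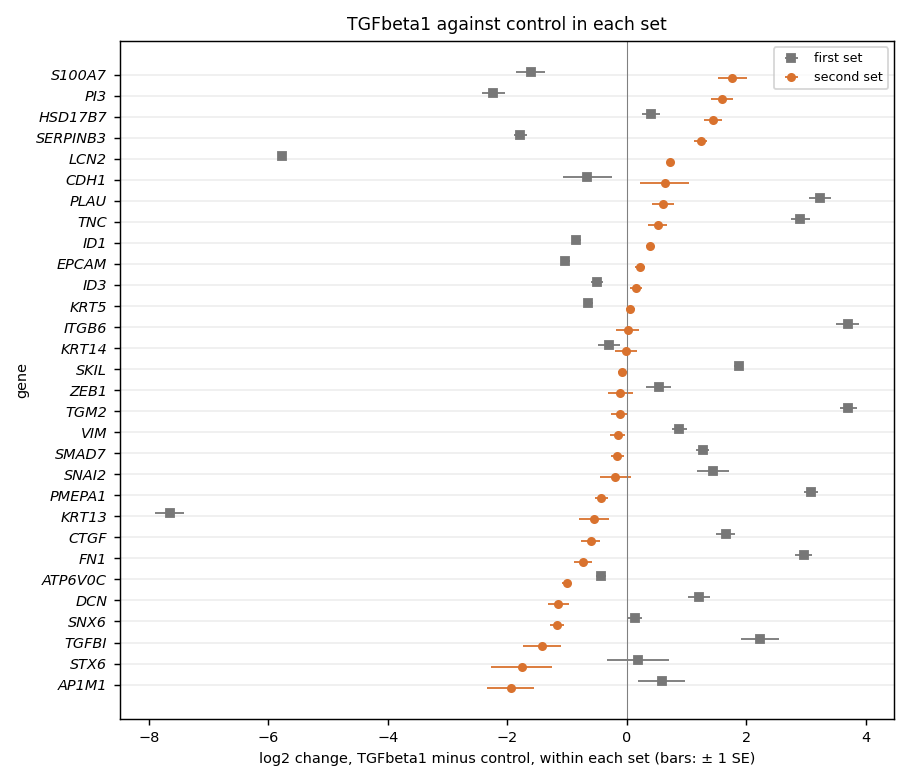
Each row is 1 gene, with its log2 change (TGFbeta1 minus control) on the x axis in the first set (grey squares) and in the second (orange circles), and bars of 1 SE from the joint fit. For PMEPA1, TGM2, ITGB6 and FN1 the grey squares lie between 2.96 and 3.71 and the orange circles between -0.74 and 0.02.

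On hg19, per the files, S100A7 (ENSG00000143556.8_1) lies on chromosome 1, 153430220 to 153433177 on the minus strand, and PI3 (ENSG00000124102.4_1) on chromosome 20, 43803517 to 43805185 on the plus strand. STX6 (ENSG00000135823.13_2) lies on chromosome 1, 180941861 to 180992047 (minus), AP1M1 (ENSG00000072958.8_1) on chromosome 19, 16308389 to 16356718 (plus), and CRK (ENSG00000167193.7_1) on chromosome 17, 1323983 to 1359552 (minus). DCN (ENSG00000011465.16_2) lies on chromosome 12, 91534261 to 91576900 (minus), CTGF (ENSG00000118523.5_1) on chromosome 6, 132269316 to 132272513 (minus) and VIM (ENSG00000026025.14_2) on chromosome 10, 17270258 to 17279592 (plus). The spans cover the listed protein-coding transcripts, introns included, and each gene value adds them up.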

How the data were processed

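The authors deposited FPKM values per protein-coding transcript in 2 tables. Per the submitters' processing notes, HISAT2 2.0.4 and StringTie 1.2.3 were used with hg19, beside FastQC and cutadapt. Not given in the sources used here: settings, strandedness, annotation release. The unit of the first set's values is inferred, since its headers name none. The second set's library columns were taken as FPKM because the deposited group means, whose headers name FPKM, equal their mean log2(FPKM + 1). The authors' deposited fold changes (linear ratio and log2), p-values and q-values were not used. Identical libraries were looked for and 0 pairs found.

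Gene values add up all transcripts of a symbol. FPKM divides by each library's total, so a change in abundant genes shifts all others. Genes (or transcripts) averaging 1 FPKM or more over the 6 libraries were tested on log2(FPKM + 1) with limma 3.58.1 under R 4.3.3, with a mean-variance trend, two-sided, with Benjamini-Hochberg adjustment. A transcript listed at 0 may only have failed to be assigned reads. The interaction of set and agent used genes listed in both tables at 1 FPKM or more in each, and 163 symbols of the first set were renamed through shared transcript identifiers. Transcript lengths came from GENCODE v29 and covered 29098 of 29204 transcripts. Promoters came from RefSeq. Python 3.11.15, pandas 2.3.3, numpy 2.4.6 and matplotlib 3.10.9 prepared tables and plots. The procedure was tested on simulated data.

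The members and 46 gene lists were chosen with earlier results of these data known. Named genes are the 15 largest calls in each direction, in each list the 4 smallest p-values, and a fixed panel of 24 TGFbeta response genes. A few named genes are left out of the text and plots. Genes named outside this rule were picked after their values were seen. The alternatives tried were 3 other scalings, a pseudocount of 0.1, a filter at 5 FPKM or none, robust variance, no trend, a required change of 1, omission of each library, the replicate block, and sums weighted by transcript length (added after seeing the data).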

Additional observations from a re-analysis of the deposited data

Results flagged for a closer look

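The genes looked at here are the fixed panel and the largest calls of the second set, where tested in both sets. For 26 of these the effect of TGFbeta1 differed between the second and the first set. The test was that of the interaction itself, at an adjusted p under 0.05. Over all genes in that fit, 1346 of 9990 differed (13.5%). Differences are the log2 change in the second set minus that in the first. Among TGFbeta targets, matrix and mesenchymal genes the effect was lower in the second set. The difference was -1.42 for SMAD7, -1.95 for SKIL, -3.51 for PMEPA1, -3.65 for TGFBI, -2.26 for CTGF, -3.83 for TGM2 and -3.68 for ITGB6. It was -3.70 for FN1, -2.39 for TNC, -1.03 for VIM, -1.64 for SNAI2 and -2.63 for PLAU. Among epithelial and ID genes the effect was higher in the second set, by 1.25 for EPCAM, 1.23 for ID1, 0.66 for ID3, 0.70 for KRT5, 7.10 for KRT13 and 6.50 for LCN2.

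Of the 5 largest calls of the second set in each direction, those tested in both sets and passing differed by 3.38 for S100A7, 3.82 for PI3, 1.05 for HSD17B7 and 3.02 for SERPINB3. The differences were -2.53 for AP1M1, -1.32 for SNX6, -2.35 for DCN and -0.58 for ATP6V0C. All of them rest on plain sums, and the difference between sets was not tested with sums weighted by transcript length. With such weights the second-set changes of AP1M1 (-0.05) and DCN (-0.97) did not pass, while those of SNX6 and ATP6V0C did. AP1M1 also varied within the first set, from 5.34 to 14.99 FPKM in the controls and from 6.63 to 21.73 with TGFbeta1.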

How the results depend on the processing

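With 3 libraries a group the calls were sensitive. The 34 called genes kept their sign in all alternatives that tested them, but AP1M1 was at -0.05 (SE 0.07) with sums weighted by transcript length, which is within its error of 0. Against 18 genes called higher and 16 lower, there were 10 and 7 with an equal sum per library, 11 and 9 without trend, and 9 and 5 when a change of 1 or more was required. Omitting 1 library in turn gave 0 to 13 higher and 0 to 10 lower. The replicate block gave 0 and 0 (smallest adjusted p 0.153, with 1134 genes at an unadjusted p under 0.05, against 973 without control 4). The numbers were not taken to pair the libraries: deviations from the group means of same-numbered libraries correlated at 0.046, 0.017 and 0.038, although each library correlated best with its own number. For transcripts, the 24 higher and 21 lower became 14 and 13 at a pseudocount of 0.1, 14 and 13 at 5 FPKM, 1 and 0 with the block, and 15 to 25 higher and 15 to 26 lower when 1 library was left out. For the interaction, 759 higher became 489 with an equal sum and 587 lower became 365 at 5 FPKM. Split by scaling, it was 638 and 648 by median of ratios and 596 and 661 by quantiles.

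Weighted by transcript length, 39 genes were called, 21 higher and 18 lower, and 30 of the 34 were among them. Some named genes near 0 changed sign. ITGB6 was at -0.002034 with an equal sum and at -0.1418 to 0.2212 with 1 library left out, where KRT14 was at -0.07847 to 0.05162, MAX at -0.1233 to 0.3617 and ZEB1 at -0.3309 to 0.1525. KRT5 was at -0.04554 by quantiles. By length, MAX was at -0.02829, SKIL at 0.1561, SMAD7 at 0.005027 and VIM at 0.02428, and the median of the TGFbeta target list was 0.005. Depth is unknown, so counting error could not be given.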

Other observations

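Several uncalled genes, chosen after their values were seen, differed several-fold between libraries of the same group. VPS35, which encodes the core subunit of retromer, was at 3.06, 2.65 and 2.69 FPKM in the controls, at 2.89 in TGFbeta1 4 and at 25.5 in TGFbeta1 5 and 6 (log2 change 1.88, adjusted p = 0.446). ACSS2, an acetyl-CoA synthetase gene, was at 4.40, 28.8 and 4.76 FPKM in the controls and 34.4, 36.5 and 30.4 with TGFbeta1, all above the controls. HLA-C was at 6.28, 19.0 and 5.29 FPKM and then 31.0, 5.17 and 31.7. S100A13 was at 77.4 FPKM in control 4, at 12.5 and 12.2 in the other controls and at 8.33, 9.53 and 5.94 with TGFbeta1, all below the controls. The tight junction gene CLDN4 was at 22.7 FPKM in TGFbeta1 5 and at 3.77 in control 6, and under 0.3 in the other 4.

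Of 29204 transcripts, 9 were listed at 0 in all 3 controls and at 1 FPKM or more in all 3 libraries labelled TGFbeta1, and 5 the reverse. They belong to 14 genes, of which 0 were called as gene sums. LONP1-203, of a mitochondrial protease gene, was listed at 0 in the controls and at 10.8, 10.5 and 17.3 FPKM with TGFbeta1. KRIT1-201, of a gene for a vascular scaffold protein, was at 6.83, 6.53 and 5.44 FPKM in the controls and listed at 0 with TGFbeta1.

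Weighted by transcript length, 9 genes passed that had not passed as plain sums. RBMS3, an RNA-binding protein gene, had the largest change of them at -1.68 (SE 0.13, adjusted p = 0.0178), against -1.35 (adjusted p = 0.192) as a plain sum. HTRA1, a secreted serine protease gene, was at -0.52 and LOX at -0.62, while KRT6B was at 0.50 and MT1E at 0.53.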
